A study of Mus musculus with 12 samples.

Results

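Primary mouse hepatocytes (mouse HPC), the parenchymal cells of the liver, were compared after 4 h and after 2 h with TGF-β1, to describe across all genes which changes began only after 2 h and which had levelled off by then. The members are the 3 arrays labelled 4 h and the 3 arrays labelled 2 h, 6 of the 12 arrays of the series. The cells came from male C57BL/6 mice by collagenase digestion, were kept in serum-free medium on collagen for about a day, and received recombinant human TGF-β1 at 1 ng/mL in both groups. The other arrays are 3 of cells after 20 min with TGF-β1 and 3 of untreated cells, which were measured only at the start. Untreated cells of 2 h and 4 h are not analysed here, so time with TGF-β1 and time since the exchange of the medium cannot be told apart.

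TGF-β1 binds a pair of receptor kinases at the cell surface, which phosphorylate SMAD2 and SMAD3. These enter the nucleus with SMAD4, bind short DNA motifs beside other factors, and switch genes on and off, among them genes for inhibitors of the pathway itself. In hepatocytes the cytokine is known for growth arrest, apoptosis and a loss of epithelial and metabolic traits, and in the liver it drives the deposition of matrix.

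The values are log2 signals of Affymetrix Mouse Gene 1.0 ST arrays, on which a difference of 1 is a 2-fold change. Of the array's probe sets, 21789 stand for exactly 1 gene symbol, which cover 19938 genes. Each gene was fitted in limma with time and replicate number as factors over all 12 arrays, and a gene was called at an adjusted p (Benjamini-Hochberg) under 0.05. Estimates are given with their standard error (SE). The replicates are described as biological, and with 3 arrays a group their number limits the precision. Medians of the 6 arrays lay between 6.82 and 6.93. Replicate 1 stood apart, with correlations of 0.975 to 0.987 with arrays of the other numbers, while arrays of replicates 2 and 3 correlated at 0.996 to 0.998 with each other. The hepatocyte markers were at high levels in both groups, with albumin (Alb) at 14.61, 14.55 and 14.62 at 4 h and at 14.60, 14.52 and 14.70 at 2 h.

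At 4 h against 2 h, 16 of 19938 genes were called (0.0802%), 10 higher (0.0502%) and 6 lower (0.0301%). The rises were led by Pmepa1, Thbs1, Il22ra1, Mical2 and Pdlim7, and the falls by Slco1a1, Tgm1 and Pfkfb3. The estimates of these genes ran from 0.43 to 1.57 in size, and all 16 had the same direction in 3 of 3 replicate pairs, as did 17.6% of all genes on the higher side and 15.4% on the lower. In 11 of the 16 the 4 h arrays did not overlap the 2 h arrays, as was so for 2.67% of all genes with 4 h higher and 2.74% with 4 h lower. Without the replicate factor limma called 0 genes, with 471 at an unadjusted p under 0.05 (280 higher and 191 lower). Without replicate 1 it called 6 genes, 1 of them among the 16, and without replicate 2 or replicate 3 it called 0, with 1626 and 1210 genes at an unadjusted p under 0.05. After a further quantile normalization it called 2 higher and 4 lower. At an adjusted p under 0.1 limma called 119 genes (0.597%), 52 higher (0.261%) and 67 lower (0.336%), and 1807 had an unadjusted p under 0.05 (9.06%).

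**Figure D1:**
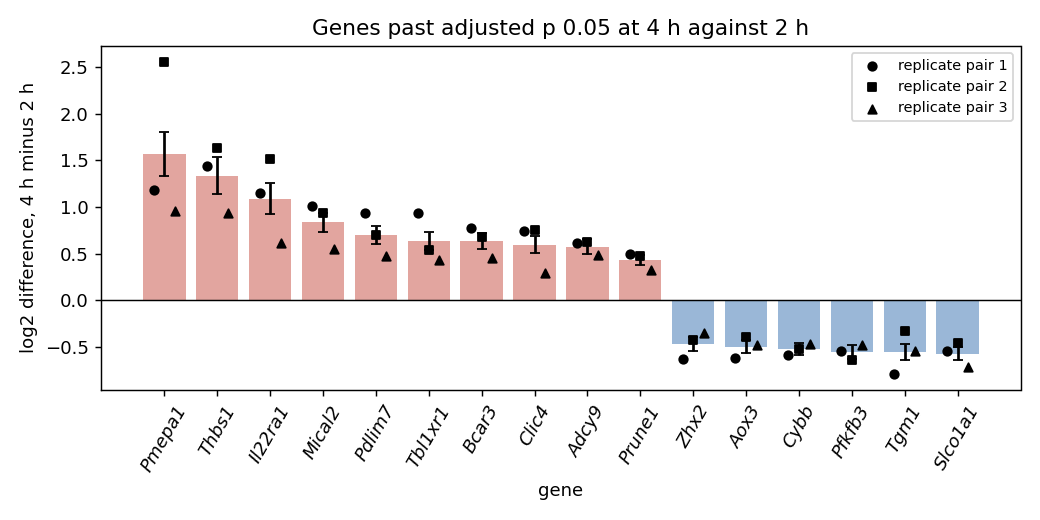
The 16 genes past an adjusted p of 0.05, with the log2 difference of 4 h minus 2 h on the vertical axis. Bars and error bars are the limma estimate and its SE, and points are the 3 replicate pairs. All points of a gene lie on 1 side of 0, and pair 2 of Pmepa1 stands highest at 2.56.

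For 4 of the called genes the stretch around the start of transcription is shown, because SMAD proteins and the AP-1 factors they act with bind DNA at short motifs. The 4 are the 3 largest rises and the largest fall with exactly 1 promoter in the RefSeq table for GRCm38.p6. Each run holds 250 bases before to 50 after the start, 5′ to 3′ on the gene's strand, in lower case. Capitals mark CAGAC, the SMAD box, and TGANTCA, the AP-1 motif, on either strand. The Il22ra1 stretch is chr4:135727909-135728208 on the plus strand, Mical2 is chr7:112225586-112225885 on the plus strand, Pdlim7 is chr13:55513397-55513696 on the minus strand, and Slco1a1 is chr6:141946913-141947212 on the minus strand.
Il22ra1: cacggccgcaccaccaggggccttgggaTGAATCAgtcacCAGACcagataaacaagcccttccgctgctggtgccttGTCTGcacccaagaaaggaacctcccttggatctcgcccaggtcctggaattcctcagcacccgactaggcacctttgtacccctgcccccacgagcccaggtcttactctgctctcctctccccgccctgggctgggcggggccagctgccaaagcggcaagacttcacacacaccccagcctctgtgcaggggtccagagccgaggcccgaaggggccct
Mical2: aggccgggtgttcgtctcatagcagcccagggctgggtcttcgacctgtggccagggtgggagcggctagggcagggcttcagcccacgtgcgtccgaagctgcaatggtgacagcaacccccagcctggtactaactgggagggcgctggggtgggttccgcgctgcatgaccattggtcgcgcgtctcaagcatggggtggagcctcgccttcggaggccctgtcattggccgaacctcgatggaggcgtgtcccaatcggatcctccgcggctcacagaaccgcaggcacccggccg
Pdlim7: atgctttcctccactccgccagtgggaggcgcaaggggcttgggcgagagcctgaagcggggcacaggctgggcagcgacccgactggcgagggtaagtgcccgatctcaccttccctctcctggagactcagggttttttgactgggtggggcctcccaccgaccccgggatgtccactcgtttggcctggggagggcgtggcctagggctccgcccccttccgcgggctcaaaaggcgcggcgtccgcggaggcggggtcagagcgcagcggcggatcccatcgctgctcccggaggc
Slco1a1: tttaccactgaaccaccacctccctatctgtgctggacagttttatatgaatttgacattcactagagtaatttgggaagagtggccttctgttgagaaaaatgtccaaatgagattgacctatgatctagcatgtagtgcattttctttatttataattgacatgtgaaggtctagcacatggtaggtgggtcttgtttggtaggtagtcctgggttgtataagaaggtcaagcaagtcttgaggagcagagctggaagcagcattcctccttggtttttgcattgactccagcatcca
The Il22ra1 stretch held CAGAC or its reverse complement 2 times, beginning at -210 and -172 from the start, and TGANTCA beginning at -222. The Mical2, Pdlim7 and Slco1a1 stretches held neither motif. Of the 13 called genes with a promoter in the table, 5 held CAGAC in any of their promoters (38.5%), against 49.6% of all 32851 promoters. TGANTCA was held by 2 of the 13 (15.4%), against 7.81% of all promoters. The first share of each pair counts genes, some with several promoters, and the second counts single promoters. A match in these letters is a description only.

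The SMAD-induced membrane protein Pmepa1, which restrains the pathway by binding receptor-activated SMADs, had the largest estimate. The gene lies at chr2:173224458-173276731. Its signal was 10.30, 10.76 and 10.48 at 4 h (replicates 1, 2 and 3), against 9.12, 8.20 and 9.52 at 2 h. The 4 h arrays lay above all 2 h arrays, and the difference was 1.57 ± 0.23 (limma, adjusted p = 0.0483). Pmepa1 already lay 1.21 ± 0.23 above untreated cells at 2 h, which did not pass (limma, adjusted p = 0.155). Its estimates were thus above 0 on both sides of 2 h. The 2 h array of replicate 2 was the lowest, and without replicate 2 the difference was 1.07.

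Thbs1, thrombospondin 1, a secreted matrix protein that can release latent TGF-β, had a smaller estimate by 2 h. It lies at chr2:118111876-118127133. Its signal was 10.26, 8.93 and 8.60 at 4 h, against 8.82, 7.30 and 7.66 at 2 h. Groups overlap because replicate 1 lay above the others at both times, while within each replicate the 4 h array was higher by 1.44, 1.63 and 0.94. The difference was 1.34 ± 0.19 (limma, adjusted p = 0.0425), and at 2 h the gene stood only 0.15 ± 0.19 above untreated cells.

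Il22ra1, the subunit of the interleukin 22 receptor that epithelial cells carry, had 9.20, 9.92 and 9.54 at 4 h, against 8.05, 8.40 and 8.93 at 2 h. All 4 h arrays were above all 2 h arrays. The difference was 1.09 ± 0.16 (limma, adjusted p = 0.0483), following 0.62 ± 0.16 by 2 h. A further probe set of the gene differed by 0.84 ± 0.11 (adjusted p = 0.0349). Adcy9, an adenylyl cyclase that makes cAMP, had 8.74, 9.10 and 8.84 at 4 h, against 8.12, 8.47 and 8.35 at 2 h, again with no overlap. Its difference was 0.57 ± 0.08 (limma, adjusted p = 0.0393).

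The next of the called rises belong to a list of actin and focal adhesion genes. Mical2, an enzyme that oxidizes actin filaments, had 10.11, 10.34 and 10.13 at 4 h, against 9.10, 9.40 and 9.57 at 2 h, a difference of 0.84 ± 0.10 (limma, adjusted p = 0.0349). Pdlim7, a PDZ and LIM domain protein of actin fibres, had 9.48, 9.74 and 9.59 at 4 h, against 8.54, 9.04 and 9.12 at 2 h, a difference of 0.70 ± 0.09 (adjusted p = 0.0349). Bcar3, an adaptor that binds the docking protein p130Cas, had 8.94, 9.41 and 9.13 at 4 h, against 8.16, 8.73 and 8.68 at 2 h, a difference of 0.64 ± 0.09 (adjusted p = 0.0393). In each of these genes the 4 h arrays lay above the 2 h arrays without overlap.

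Tbl1xr1, Clic4 and Prune1 were the other rises. Tbl1xr1, a subunit of the NCoR and SMRT corepressor complex, had 10.49, 10.55 and 10.32 at 4 h, against 9.55, 10.01 and 9.89 at 2 h (0.64 ± 0.10, adjusted p = 0.0489). Its further probe set differed by 0.48 ± 0.12 and did not pass (adjusted p = 0.168). Clic4, of the chloride intracellular channel family, had 12.17, 12.01 and 11.89 at 4 h, against 11.43, 11.26 and 11.60 at 2 h (0.60 ± 0.09, adjusted p = 0.0483). Prune1, a phosphoesterase, had 10.85, 11.36 and 11.27 at 4 h, against 10.36, 10.88 and 10.94 at 2 h (0.43 ± 0.06, adjusted p = 0.0349). Only in Prune1 did the groups overlap, with the 4 h array of replicate 1 below the 2 h arrays of replicates 2 and 3.

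**Figure D2:**
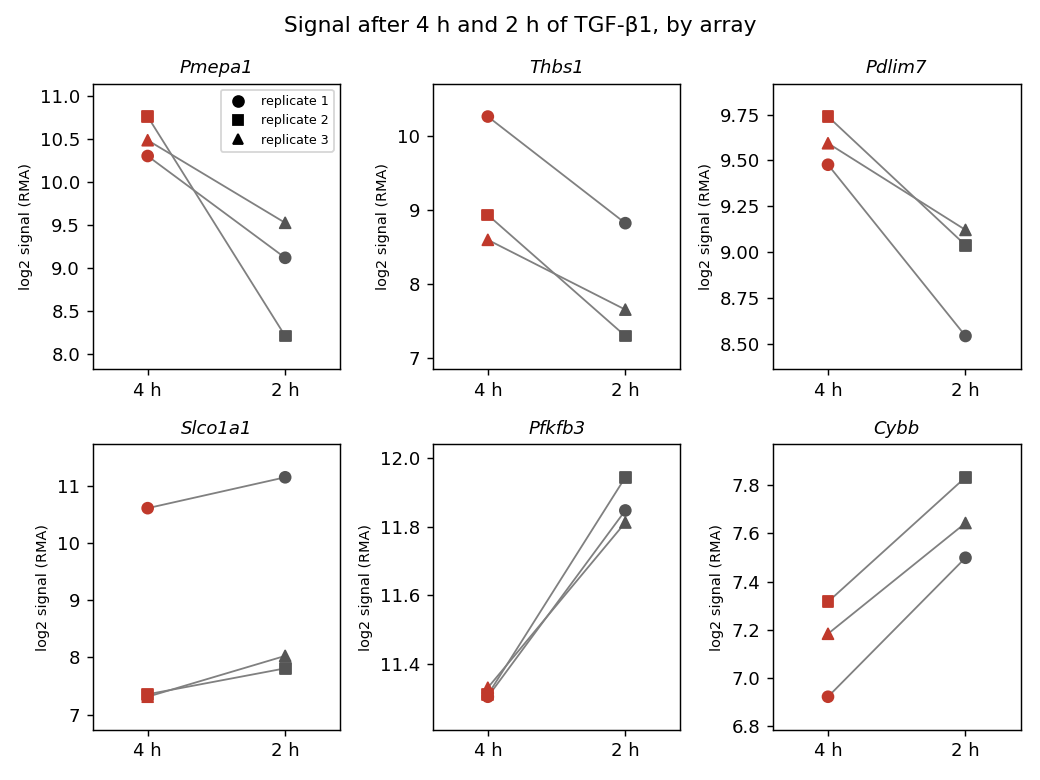
The log2 signal on each array for 6 of the called genes, with 4 h left of 2 h and a line joining arrays of the same replicate number. Pmepa1, Thbs1 and Pdlim7 were higher at 4 h and Slco1a1, Pfkfb3 and Cybb lower in 3 of 3 replicates, while Slco1a1 lay at 10.61 at 4 h and 11.15 at 2 h in replicate 1 and between 7.31 and 8.03 in the others.

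The falls included transport and oxidation enzymes of the hepatocyte. Slco1a1, an organic anion transporter that takes bile acids into the cell (chr6:141907281-141946962), had 10.61, 7.36 and 7.31 at 4 h, against 11.15, 7.81 and 8.03 at 2 h. The groups overlap, since replicate 1 lay 3.28 above the mean of the other replicates at 4 h and 3.23 above it at 2 h, but every pair fell, by 0.54, 0.45 and 0.71. The difference was -0.57 ± 0.07 (limma, adjusted p = 0.0349). Aox3, an aldehyde oxidase, had 10.83, 6.32 and 6.46 at 4 h, against 11.45, 6.71 and 6.93 at 2 h, a difference of -0.49 ± 0.07 (adjusted p = 0.0393). Replicate 1 of Aox3 lay 4.45 above the others at 4 h and 4.63 at 2 h. Tgm1, a transglutaminase that crosslinks proteins, had 9.26, 7.92 and 7.87 at 4 h, against 10.05, 8.24 and 8.42 at 2 h (-0.55 ± 0.09, adjusted p = 0.0495). The labels give strain and sex alike for all replicates, and the part of this replicate difference in the results was not tested. Without replicate 1, the differences were -0.43 for Aox3 and -0.44 for Tgm1, and neither was called.

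Pfkfb3, which makes the activator of glycolysis fructose 2,6-bisphosphate, fell with almost no spread between replicates. It had 11.30, 11.31 and 11.33 at 4 h, against 11.85, 11.94 and 11.81 at 2 h, a difference of -0.55 ± 0.07 (limma, adjusted p = 0.0349). Zhx2, a transcriptional repressor known for silencing fetal liver genes, had 7.82, 7.87 and 7.87 at 4 h, against 8.44, 8.29 and 8.22 at 2 h (-0.47 ± 0.07, adjusted p = 0.0489). Neither gene's groups overlapped. At 2 h the estimate against untreated cells was -0.34 ± 0.07 for Zhx2 and -0.12 for Pfkfb3.

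Cybb, the catalytic subunit of the NADPH oxidase of phagocytes, had 6.92, 7.32 and 7.18 at 4 h, against 7.50, 7.83 and 7.64 at 2 h. The groups did not overlap, and the difference was -0.52 ± 0.07 (limma, adjusted p = 0.0349), after -0.44 by 2 h. Markers of Kupffer cells, the macrophages of the liver, were read beside it. All 24 on the list had estimates below 0 at 4 h against 2 h, as did 47.1% of all genes. Of the 24, 7 had an unadjusted p under 0.05 (29.2%, against 4.79% of all genes on the lower side), with 0 called. Their mean level was 7.21 to 7.28 at 4 h, against 7.40 to 7.51 at 2 h, and 7.61 to 7.74 in untreated cells. Igsf6 (-0.69 ± 0.13, adjusted p = 0.0858) and Ms4a6c (-0.63 ± 0.13, adjusted p = 0.0858) were the farthest below 0, while the Kupffer cell lectin Clec4f stood at -0.04 ± 0.09. None of the markers was at 0, since array signals do not reach it, and the part of such cells in the result was not tested. In bulk samples fewer cells of a type and less RNA per cell cannot be told apart. Of 17 endothelial markers 1 had an unadjusted p under 0.05 (5.88%), and of 15 stellate cell and fibroblast markers 1 (6.67%). Of 7 cholangiocyte and 13 lymphocyte markers 0 did, and of all genes 9.06% in either direction.

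The called genes were next set against untreated cells to see what each had done by 2 h. At 2 h, 9 of the 16 lay within a band of 0.25 (log2) around the untreated level, as did 97.3% of all genes. They were Thbs1, Pdlim7, Tbl1xr1, Bcar3, Prune1, Slco1a1, Tgm1, Pfkfb3 and Aox3. The other 7, Pmepa1, Il22ra1, Mical2, Clic4, Adcy9, Cybb and Zhx2, had estimates 0.25 or more from untreated the same way by 2 h. In 0 genes was the estimate that far the opposite way. None of these changes by 2 h was called by limma. At the edge of the band, Prune1 stood inside at 0.22 and Mical2 outside at 0.26. At the edge of the call, Tgm1 had an adjusted p of 0.0495 and Plpbp, not called, 0.0542. In 7 of the 9 the interval of the change by 2 h included 0. The exceptions were Bcar3, with an interval (95%) of 0.01 to 0.41, and Prune1, with 0.09 to 0.35. In 8 of the 9 the interval lay within 0.5 of 0, and the exception was Thbs1, at 0.15 ± 0.19. An interval that includes 0 does not show that a gene had not moved. With calls at an adjusted p under 0.1, 102 genes lay within the band at 2 h (42 higher and 60 lower after it). A further 17 had estimates of 0.25 or more the same way by 2 h, and 0 had turned.

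Both steps share the 2 h arrays, so an error in a 2 h mean moves them in opposite ways. The difference of the steps, 4 h minus 2 h less 2 h minus untreated, was therefore tested itself. Limma called 0 genes for it, with 650 at an unadjusted p under 0.05 (3.26%). Of the 16 called genes, 9 had an unadjusted p under 0.05 for the difference of steps, the smallest for Slco1a1 (limma, unadjusted p = 0.00136). Aox3 followed with 0.00234, Tbl1xr1 with 0.00382 and Thbs1 with 0.00432, and none of these passed adjustment. Pmepa1, Cybb and Zhx2, by contrast, had unadjusted p values of 0.393, 0.494 and 0.334. A later step larger than the earlier one was thus not shown for any gene at the adjusted threshold. The smallest adjusted p of the test over all genes was 1.

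**Figure D3:**
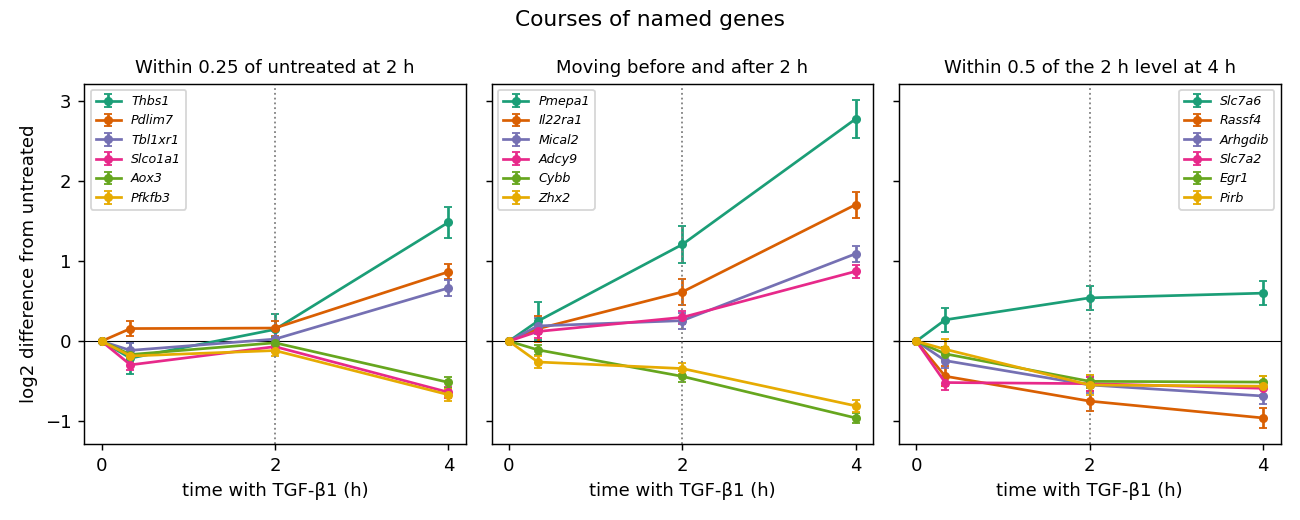
Log2 difference from untreated cells over time with TGF-β1 (h), with estimates and SE from limma. The left panel holds called genes within 0.25 of untreated at 2 h, and the centre panel called genes 0.25 or more from it. The right panel holds genes within 0.5 of their 2 h level at 4 h. Thbs1 stood at 0.15 at 2 h and 1.48 at 4 h, Pmepa1 at 1.21 and 2.78, and Egr1 at -0.50 and -0.51.

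A gene was counted as near its 2 h level if it was called at 4 h against untreated cells, had moved the same way by 2 h with an unadjusted p under 0.05, and had an interval (95%) of 4 h minus 2 h within 0.5 of 0. At 4 h 966 genes were called against untreated cells (4.85%), and 377 of these were near their 2 h level, 89 of 330 higher (1.66% of all genes) and 288 of 636 lower (3.19%). The band of 0.5 is wide beside most changes, and not all of these genes had levelled off. In 116 of the 377 the interval of 4 h minus 2 h excluded 0, and in 50 the larger part of the change came after 2 h. With a band of 0.25, chosen after the data were seen, the count was 94, 24 higher and 70 lower, and in all 94 the interval included 0 and the larger part of the change had come by 2 h. Without replicate 1, replicate 2 or replicate 3 the count of 377 became 461, 26 and 5. Just inside the wider band stood Lipt2, which differed by -0.36 after 2 h (interval -0.496 to -0.23) and by -0.16 before it. Just outside it stood H2-Ab1, with -0.21 after 2 h and -0.48 before it. At 2 h against untreated cells limma called 0 genes, with 1263 at an unadjusted p under 0.05 (6.33%), so no change by 2 h passed the test by itself.

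Among the 377 genes, 9 of the 10 with the largest change by 2 h were lower than in untreated cells. Egr1, an immediate early transcription factor, had 11.01, 10.87 and 10.98 at 4 h and 11.17, 10.68 and 11.03 at 2 h, against 11.54, 11.37 and 11.48 in untreated cells. Both times lay below all untreated arrays, and 4 h minus 2 h was -0.01 with an interval of -0.19 to 0.17. Slc7a2, a transporter of cationic amino acids, had 11.37, 11.30 and 11.17 at 4 h and 11.56, 11.38 and 11.06 at 2 h, against 11.91, 11.91 and 11.78 in untreated cells. It too had no overlap with untreated cells at either time, and 4 h minus 2 h was -0.06 (-0.25 to 0.13).

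Rassf4, of the Ras association domain family, had 9.13, 8.41 and 8.39 at 4 h and 9.16, 8.73 and 8.67 at 2 h, against 10.35, 9.45 and 9.01 in untreated cells. Its 2 h minus untreated estimate of -0.75 was the largest in size among these genes, with -0.21 (-0.48 to 0.06) after 2 h. Slc7a6, a further amino acid transporter, was the 1 of the 10 that lay higher, with 9.15, 10.65 and 10.62 at 4 h and 9.38, 10.43 and 10.44 at 2 h, against 9.16, 9.57 and 9.89 in untreated cells. In replicate 1 it did not lie above its untreated array at 4 h. Arhgdib, a gene abundant in blood cells, and Pirb, a receptor of myeloid cells, each stood at -0.55 at 2 h. After 2 h Arhgdib moved by -0.14 (-0.35 to 0.08) and Pirb by -0.02 (-0.30 to 0.27). Of the Kupffer list, 6 of 24 genes were near their 2 h level (25%, against 1.89% of all genes), and its markers had a median of -0.25 by 2 h. Being counted requires a change by 2 h, and 12 of the 24 were lower then at an unadjusted p under 0.05 (50%, against 3.97% of all genes). The share thus does not show levelling by itself, and Csf1r, among the 6, differed by -0.22 ± 0.07 after 2 h (limma, adjusted p = 0.273).

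**Figure D4:**
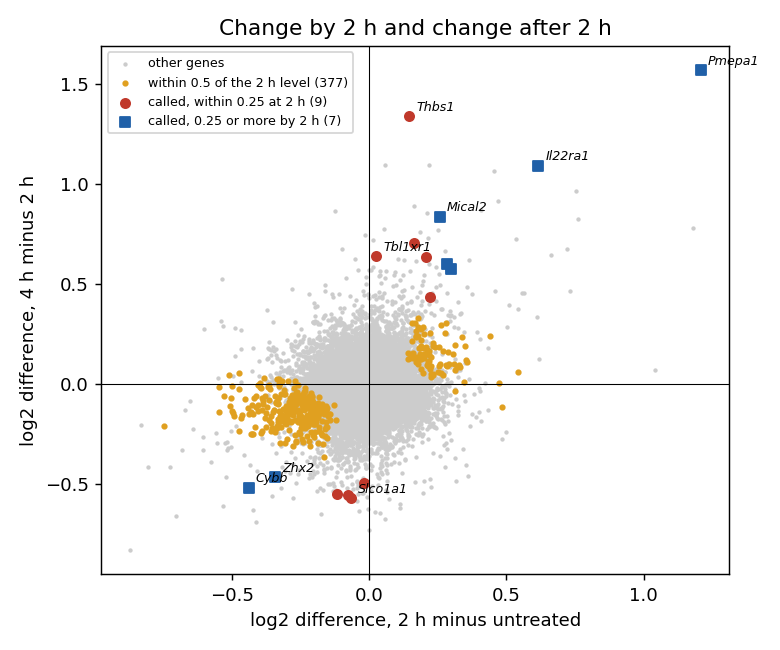
Each gene by its log2 difference of 2 h minus untreated (horizontal) and of 4 h minus 2 h (vertical), which share the 2 h arrays. The 9 called genes within 0.25 of untreated at 2 h and the 7 with larger estimates are marked. Marked as well are the 377 genes near their 2 h level by the 0.5 band.

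Genes of the pathway were read next, from a list of SMAD targets and feedback genes. Of 28 measured, 1 was called, Pmepa1, against 0.0802% of all genes. At an unadjusted p under 0.05, 7 were higher (25%, against 4.27% of all genes) and 1 was lower (3.57%, against 4.79%). The list's median difference was 0.04, beside 0.01 for all genes. The list's mean changed by -0.02, 0.46 and -0.02 after 2 h in replicates 1, 2 and 3, and by 0.21, 0.04 and 0.44 before it. In replicate 2 the list's mean moved mostly after 2 h, and in the other replicates before it. Without replicate 2, 4 members were higher and 4 lower at an unadjusted p under 0.05.

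Ccn2, connective tissue growth factor, had 12.84, 13.81 and 13.53 at 4 h, against 12.16, 12.36 and 13.32 at 2 h (0.78 ± 0.21, adjusted p = 0.191). Skil, the corepressor SnoN, had 9.95, 10.78 and 10.69 at 4 h, against 9.92, 9.08 and 10.49 at 2 h (0.64 ± 0.28, adjusted p = 0.528). Smad7, the inhibitory SMAD, had 8.52, 9.28 and 9.02 at 4 h, against 8.69, 7.94 and 9.99 at 2 h (0.07 ± 0.34, adjusted p = 0.987). In all 3 the groups overlapped and replicate 2 had the largest step of the pairs, 1.45 for Ccn2, 1.70 for Skil and 1.34 for Smad7. Without replicate 2, Ccn2 differed by 0.44, Skil by 0.11 and Smad7 by -0.57. Tgfbr1, the type I receptor, had 10.14, 10.36 and 10.19 at 4 h, against 9.38, 9.68 and 9.82 at 2 h, with no overlap and a difference of 0.60 ± 0.10 that did not pass (adjusted p = 0.0691). Ski, the corepressor related to Skil, differed by 0.26 ± 0.07 (adjusted p = 0.171).

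Of 37 measured genes of the extracellular matrix and its enzymes, 1 was called, Thbs1, against 0.0802% of all genes. At an unadjusted p under 0.05, 6 were higher (16.2%, against 4.27% of all genes) and 1 lower (2.7%, against 4.79%). Lox, which crosslinks collagen, had 11.24, 10.61 and 10.56 at 4 h, against 10.28, 9.65 and 9.74 at 2 h. Its groups did not overlap, and its difference of 0.91 ± 0.16 missed the threshold (limma, adjusted p = 0.0641). The stellate cell and fibroblast markers, which include fibrillar collagens, had a median difference of 0.02. Of 34 actin and focal adhesion genes, 3 were called (Mical2, Pdlim7 and Bcar3), against 0.0802% of all genes. This list, like the others, was chosen with earlier results of these data known, so its count of calls is a description only. At an unadjusted p under 0.05, 9 of its genes were higher (26.5%, against 4.27% of all genes) and 1 lower (2.94%, against 4.79%). The list's median was 0.12, and 17 of the 34 were higher in 3 of 3 pairs (50%, against 17.6% of all genes). Actn1, which bundles actin, had 10.93 to 11.12 at 4 h, against 10.38 to 10.61 at 2 h, a difference of 0.49 ± 0.09 (adjusted p = 0.0833).

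Epithelial junction genes did not share a direction, with 0 of 22 measured called. At an unadjusted p under 0.05, 4 were higher (18.2%, against 4.27% of all genes) and 3 lower (13.6%, against 4.79%). Jup, the junction protein plakoglobin, had 9.77, 10.44 and 10.15 at 4 h, against 9.32, 9.62 and 9.55 at 2 h (0.62 ± 0.11, adjusted p = 0.0749). Cldn1, a tight junction claudin, had 11.18, 10.50 and 10.52 at 4 h, against 11.55, 10.89 and 11.11 at 2 h (-0.45 ± 0.09, adjusted p = 0.0858). Of 12 transcription factors of epithelial-mesenchymal transition, 1 was higher (8.33%) and 2 lower (16.7%) by the same measure. Snai2 among them had 8.07, 7.84 and 7.80 at 4 h, against 8.60, 7.87 and 8.21 at 2 h, a difference of -0.33 ± 0.09 (limma, adjusted p = 0.211) after 0.34 ± 0.09 by 2 h. At 4 h it stood 0.02 above untreated cells, and 4 h minus 2 h was -0.22 without replicate 1 and -0.47 without replicate 2.

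Lists of liver metabolism lay below 0 after 2 h, although few of their genes were called. Of 38 measured enzymes of urea production and amino acid breakdown, 36 had estimates below 0, against 47.1% of all genes, and 26 had an unadjusted p under 0.05 (68.4%, against 4.79% of all genes), with 0 called. The list's median was -0.23 at 4 h against 2 h, and -0.08 at 2 h against untreated cells. Its mean changed by -0.31, -0.17 and -0.22 after 2 h in replicates 1, 2 and 3. All 26 lay within 0.25 of untreated cells at 2 h, as did 97.3% of all genes, so this count does not set them apart. Without replicates 1, 2 and 3 in turn, 18, 23 and 19 members lay below 0 at an unadjusted p under 0.05, and without the replicate factor 0 did.

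Kynu, kynureninase of tryptophan breakdown, had 10.90, 8.87 and 8.68 at 4 h, against 11.51, 9.18 and 9.47 at 2 h (-0.57 ± 0.09, adjusted p = 0.0575). Amdhd1, of histidine breakdown, had 9.54, 8.40 and 8.31 at 4 h, against 10.31, 8.70 and 8.83 at 2 h (-0.53 ± 0.09, adjusted p = 0.0641). Hal, histidine ammonia-lyase, had 10.93, 9.43 and 9.32 at 4 h, against 11.29, 9.78 and 9.81 at 2 h (-0.40 ± 0.08, adjusted p = 0.0858). Replicate 1 lay highest at both times in all 3 genes, the groups overlap, and every pair was lower at 4 h.

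The complement list lay below 0 as well, with 19 of 19 genes on that side, against 47.1% of all genes. Of these, 12 had an unadjusted p under 0.05 (63.2%, against 4.79% of all genes), with a median of -0.22 for the list and 0 called. Mbl2, mannose-binding lectin, had 9.51, 9.38 and 9.16 at 4 h, against 9.96, 9.52 and 9.67 at 2 h (-0.37 ± 0.07, adjusted p = 0.0858). C4bp, a regulator of complement, had 11.47, 10.39 and 10.44 at 4 h, against 11.96, 10.61 and 10.77 at 2 h (-0.35 ± 0.07, adjusted p = 0.0858). Of 29 cytochrome P450 and drug metabolism genes 15 were lower at an unadjusted p under 0.05 (51.7%, against 4.79% of all genes). There 1 was higher (3.45%, against 4.27%), and the median was -0.18. Cyp2j5, a P450 of fatty acids, differed by -0.42 ± 0.09 (adjusted p = 0.0928). Without the replicate factor 3 complement genes and 1 of the P450 list had an unadjusted p under 0.05 on the lower side.

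Among 26 genes of bile acid synthesis and transport, 1 was called, Slco1a1, against 0.0802% of all genes. At an unadjusted p under 0.05, 12 were lower (46.2%, against 4.79% of all genes) and 1 higher (3.85%, against 4.27%). Akr1d1, a reductase of bile acid synthesis, had 8.49, 7.62 and 7.66 at 4 h, against 9.24, 7.99 and 8.34 at 2 h (-0.60 ± 0.10, adjusted p = 0.0641). Cyp7a1, the rate-limiting enzyme of bile acid synthesis, had 6.08, 5.64 and 5.44 at 4 h, against 6.68, 5.84 and 6.82 at 2 h, a difference of -0.73 ± 0.20 (adjusted p = 0.191). The groups of Cyp7a1 overlapped only through replicate 1 at 4 h. Its difference was -0.40 without replicate 3 and -1.0 without replicate 2. These signals of Cyp7a1 were low, below the median of 7.23 for the mean signals of the tested probe sets. Cholesterol synthesis had 9 of 21 genes lower at an unadjusted p under 0.05 (42.9%, against 4.79% of all genes) and 0 higher, with 0 called. Its mean changed by -0.27, -0.11 and -0.06 after 2 h in replicates 1, 2 and 3. Without replicates 1, 2 and 3 in turn, 4, 7 and 8 of its genes were lower by this measure, and without the replicate factor 0. The 20 general hepatocyte markers had a median of -0.03, with 4 lower at an unadjusted p under 0.05 (20%, against 4.79% of all genes). Without replicates 1, 2 and 3 in turn, 3, 1 and 0 of these markers were lower, and without the replicate factor 0.

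Genes of ER folding and the unfolded protein response had the larger median step before 2 h. Their median was -0.10 at 4 h against 2 h and -0.25 at 2 h against untreated cells. At 2 h, 18 of 25 genes were lower than in untreated cells at an unadjusted p under 0.05 (72%, against 3.97% of all genes). In the later step 5 of 25 were lower (20%, against 4.79% of all genes). Near their 2 h level were 8 (32%, against 1.89% of all genes), a count that requires a change by 2 h and does not show levelling by itself. Pdia4, a protein disulfide isomerase of the ER, had 11.56, 11.68 and 11.62 at 4 h and 11.97, 11.89 and 11.75 at 2 h, against 12.04, 12.44 and 12.39 in untreated cells. It differed by -0.25 ± 0.09 after 2 h (limma, adjusted p = 0.398). The list's mean by 2 h was -0.05 in replicate 1, against -0.39 and -0.38 in replicates 2 and 3. After 2 h it changed by -0.19, -0.05 and -0.09 in replicates 1, 2 and 3. The earlier step was thus the larger in replicates 2 and 3 only, and in replicate 1 the later step was larger.

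Of 33 immediate early genes, 0 were called. At an unadjusted p under 0.05, 2 were higher (6.06%, against 4.27% of all genes) and 7 lower (21.2%, against 4.79%). Klf4, a zinc finger factor, had 7.21, 7.79 and 7.59 at 4 h, against 6.95, 6.94 and 7.11 at 2 h (0.53 ± 0.11, adjusted p = 0.1), with no overlap. Rgs2, a regulator of G protein signalling, had 10.44, 8.42 and 8.45 at 4 h, against 10.56, 9.98 and 9.27 at 2 h (-0.83 ± 0.21, adjusted p = 0.174), after -0.87 by 2 h. Pair 1 of Rgs2 differed least. The difference was -1.18 without replicate 1 and -0.47 without replicate 2. Depp1, a FoxO target induced by fasting, had 9.07, 8.96 and 9.13 at 4 h, against 9.68, 9.97 and 9.49 at 2 h (-0.66 ± 0.13, adjusted p = 0.0858), with no overlap and a step of -0.70 before 2 h.

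**Figure D5:**
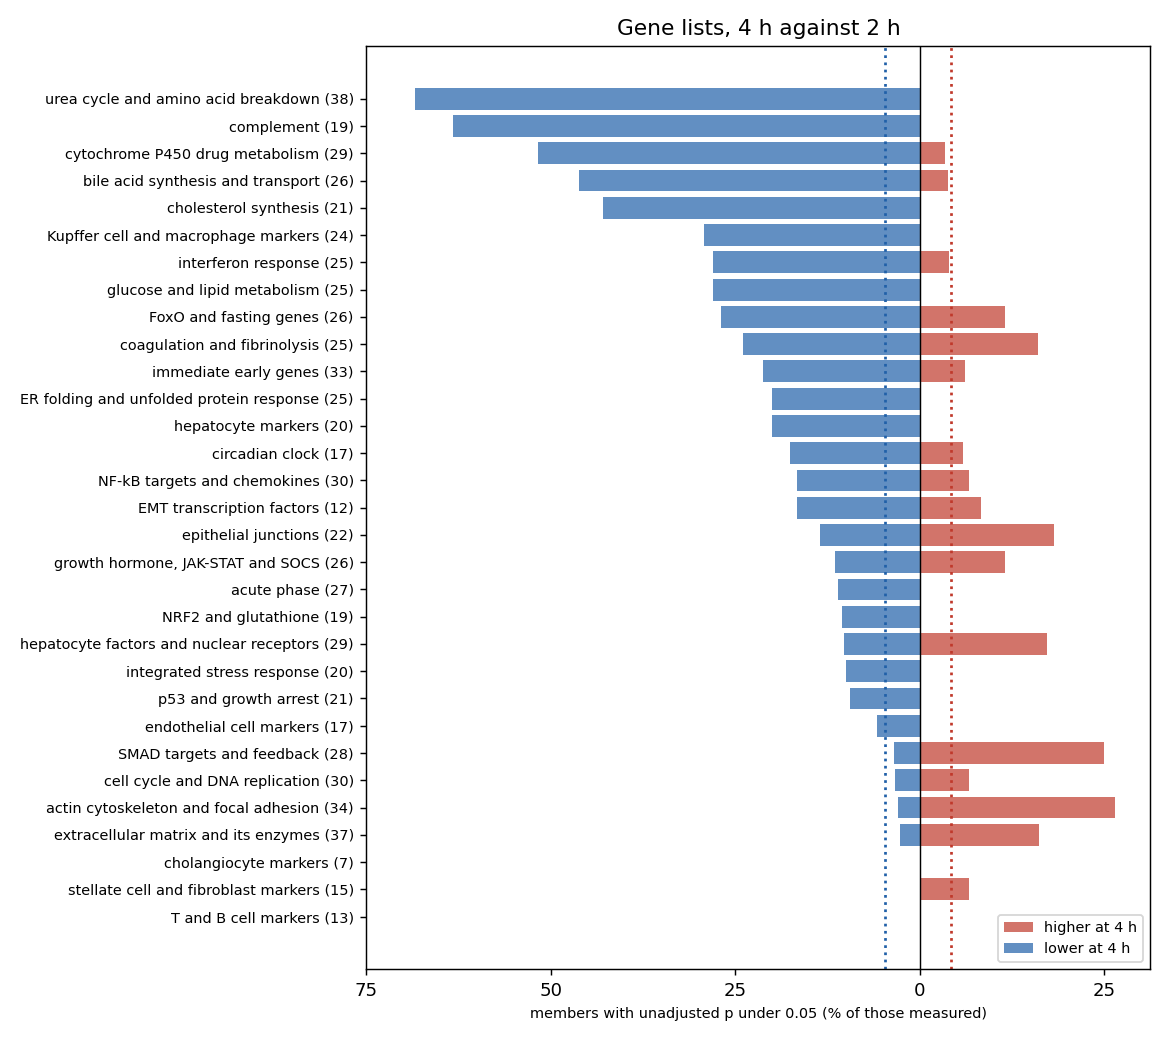
Share of each list's measured genes (number in brackets) with an unadjusted p under 0.05 at 4 h against 2 h, in percent, with lower genes to the left and higher genes to the right. Dotted lines mark the shares of all genes, 4.79% lower and 4.27% higher. The urea cycle and amino acid list stands at 68.4% lower and the actin list at 26.5% higher.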

How the data were processed

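The deposited values are log2 signals of transcript cluster probe sets, which the authors made in Affymetrix Power Tools by RMA (no version is given in the sources used here). RMA corrects for background, normalizes quantiles between arrays and summarizes probes. The paper's own analysis used FARMS and ComBat, and names a batch effect in the mouse HPC chips. Of 35556 probe sets, 21789 with exactly 1 symbol in the platform table were tested, and 1621 with several and 12146 with none there were left out. For a gene with several probe sets, that of highest mean signal is given.

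limma 3.58.1 (R 4.3.3) was fitted to all 12 arrays with time and replicate number as factors (6 residual and 5.39 prior degrees of freedom) and Benjamini-Hochberg adjustment over all tested probe sets, after tests on simulated data. The numbers were kept as pairs because the titles give the same numbers at each time and the study's limma model has a replicate factor. Same-numbered 4 h and 2 h arrays deviated together from their group means (r of 0.881, 0.794 and 0.707 for replicates 1, 2 and 3). Arrays of replicates 2 and 3 also deviated together across numbers (0.605 and 0.539). Replicate 1 stood apart and enters each group mean, which by itself raises r among replicates 2 and 3. The r values therefore do not establish the pairing.

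The 31 gene lists held 756 genes, 701 of them measured. Members, lists and tests were chosen with earlier results of these data known. Genes named are those called, those filling up the lower side by size at an unadjusted p under 0.01, the genes near their 2 h level of largest change by 2 h, up to 4 of smallest p per list, and pathway genes named in the study. Plpbp, Lipt2, H2-Ab1, Clec4f and Alb were named after their values were seen. Promoter sequences are from RefSeq, GRCm38.p6, and 13 of the 16 called genes had an entry. Alternatives were another or no replicate factor, other probe sets, scalings, priors, weights and thresholds, and leaving out replicates and arrays.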

Additional observations from a re-analysis of the deposited data

How the results depend on the processing

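No estimate of the 16 called genes changed sign under the alternatives run, but the counts of calls depended on them. The counts here are, in order, genes higher and lower at 4 h against 2 h, and list genes higher and lower. Then follow genes within 0.25 of untreated at 2 h, genes already moving by then in their estimates, and genes near their 2 h level. As reported, the counts were 10, 6, 6, 2, 9, 7 and 377. With no replicate block, and so without the pairing of arrays, they were 0, 0, 0, 0, 0, 0 and 13, with the replicate block as a random effect 0, 0, 0, 0, 0, 0 and 107, and with all probe sets 0, 0, 0, 0, 0, 0 and 135. Limma gave 471, 1038 and 1565 genes at an unadjusted p under 0.05 in these 3 fits. With the replicate block and only the 2 h and 4 h arrays, the first 4 counts were 4, 0, 2 and 0. A fit of the brighter probe sets, with a mean signal from the median up, gave 24, 21, 10, 7, 33, 12 and 330, and a further quantile normalization 2, 4, 1, 2, 4, 2 and 393. Centring on the array median gave 10, 8, 6, 4, 12, 6 and 305, averaging the probe sets of a gene 9, 6, 6, 2, 8, 7 and 380. A trended and robust prior gave 41, 57, 12, 20, 82, 16 and 388, and array weights 82, 107, 13, 31, 162, 25 and 589, with 2 genes turning. An adjusted p under 0.01 with a 2-fold change gave 0 in each count, an adjusted p under 0.1 gave 52, 67, 11, 20, 102, 17 and 511, and an unadjusted p under 0.01 gave 295, 370, 33, 88, 598, 62 and 557, with 5 genes turning and 92 for the difference of steps. That difference called 0 genes under the other alternatives for which it was run, and it was not run with the 2 h and 4 h arrays alone or for the narrower band. The narrower band of 0.25 left 94 genes near their 2 h level. The cause of these shifts was not tested.

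Leaving out each replicate or each 4 h or 2 h array in turn gave 0 to 12 genes higher, 0 to 46 lower, 0 to 5 list genes higher, 0 to 15 list genes lower, 0 to 50 within the band at 2 h, 0 to 6 already moving, 0 to 2 turning and 5 to 464 near their 2 h level. Without the 2 h array of replicate 2, 58 genes were called, 12 of them among the 16, and without the 2 h array of replicate 3, 10, with 6 among the 16. Without the 4 h array of replicate 1 or of replicate 3, 3 were called each, and 0 without the 4 h array of replicate 2 or the 2 h array of replicate 1. Smad7, not called, changed sign to -0.14 with array weights, and its estimates ran between -0.57 and 0.61 when replicates or arrays were left out. The SE of 4 h minus 2 h had a median of 0.0772 over all genes, and this spread with 3 arrays a group limits what could be called.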
